A study of Mus musculus with 26 samples.

Results

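The genes of the cytosolic ribosome in the choroid plexus (ChP) of the fourth ventricle, the secretory tissue that makes cerebrospinal fluid, were followed over 2 days in sham-operated mice and in mice without a suprachiasmatic nucleus. Members were all genes whose symbol names a ribosomal protein of the large (Rpl, Rplp) or small (Rps, Rpsa) subunit, without pseudogenes by name (-ps) and without the S6 kinases (Rps6k), that reached a mean of 10 CPM (counts scaled to the library size) in both groups. The pattern matched 422 symbols before pseudogenes by name and kinases were left out. Of the 94 that remained, 81 passed the minimum, 49 of the large and 32 of the small subunit, among 55416 genes listed and 13697 tested. The members were not near the minimum, since the lowest, Rps27l, had 34.1 ± 3.04 CPM in Ctrl (SD, n = 12), and the highest of the 13 genes left out was Rps19bp1, which encodes a protein that binds ribosomal protein S19 and is not itself a ribosomal protein, with 5.25 CPM in Ctrl and 5.07 in SCNx.

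The ribosome translates mRNA into protein, and each of its subunits is built from ribosomal RNA and a set of proteins. mRNAs of ribosomal proteins are abundant in most cells and start with a stretch of pyrimidines, the 5′ terminal oligopyrimidine (TOP) tract, through which mTOR and the LARP1 protein control their translation. In liver, translation of such mRNAs is known to follow the feeding cycle. ChP epithelium secretes large amounts of protein, among them transthyretin.

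The control group (Ctrl) were 12 adult male C57Bl6J mice with sham surgery, and the SCNx group were 12 adult male C57Bl6J mice with an electrolytic lesion of both suprachiasmatic nuclei, the central circadian pacemaker. Both groups were killed in constant darkness, 1 mouse every 4 h from circadian time (CT) 0 to 44, so that each time point of a group was a single mouse. The third group (KO) were tamoxifen-fed adult males with the genotype FoxJ1-ERT2-Cre+/-; Bmal1fl/fl, in which the clock gene Bmal1 (Arntl) is deleted in cells with motile cilia, with 1 mouse at Zeitgeber time (ZT) 7 and 1 at ZT18 of a light-dark cycle. Tissue of Ctrl and SCNx was taken with pincers, whereas that of KO was cut from frozen sections by laser and sequenced with another kit. The genotype, the sampling, the kit, the light, the tamoxifen diet (0.4 g/kg), the higher age and the laboratory of KO cannot be told apart. By the paper, RNA integrity was lower on average in the frozen KO samples, and no surgery is described for KO. There was no group on tamoxifen with intact Bmal1.

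Libraries of Ctrl and SCNx held 38751177 to 49527633 estimated counts, and those of KO 17425182 and 18059244. Transthyretin (Ttr), the main product of ChP epithelium, had 80658 to 97296 CPM in Ctrl and 59558 to 91747 in SCNx, and none of the 10 epithelial markers was at 0 in any library. In KO the sum of these markers was lower, 82521 and 86871 CPM against 141656 to 169927 in Ctrl and 114265 to 163229 in SCNx. Arntl, the target of the deletion, had 10.6 CPM in KO at ZT7 and 9.36 at ZT18 against 2.11 to 40.3 in Ctrl, and since a transcript that lacks part of the gene is still counted, this does not check the deletion. A few libraries stood apart by markers of other tissues. Neuronal markers summed to 560 CPM in Ctrl CT4 and to 1835 in SCNx CT32 against 40.9 to 152 CPM in the other libraries of both groups. Genes of hepatocytes came to a sum of 2972 CPM for Ctrl CT16 and of 12386 CPM for SCNx CT0, next to 3.19 to 49.3 CPM in the others, and the sum of blood genes was highest in SCNx CT44 with 6528 CPM.

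Start sites are shown first for members to which the text returns, because the pyrimidine tract at the start is what ribosomal protein mRNAs have in common. They are the 15 bases before and the 15 bases from the start that RefSeq gives on GRCm38.p6, read 5′ to 3′ on the strand of the gene, and capitals mark each unbroken run of at least 7 C or T bases. The first 5 have such a run and the last 4 have none. They lie at chr7:141447636-141447665 (plus strand, Rplp2), chr4:86857353-86857382 (minus strand, Rps6), chr3:90213634-90213663 (minus strand, Rps27), chr7:109519180-109519209 (plus strand, Rpl27a), chr3:28805493-28805522 (plus strand, Rpl22l1), chr5:115559452-115559481 (plus strand, Rplp0), chr9:120127751-120127780 (plus strand, Rpsa), chrX:74270801-74270830 (plus strand, Rpl10) and chr10:128549154-128549183 (minus strand, Rpl41).
Rplp2: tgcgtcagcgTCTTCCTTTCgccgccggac
Rps6: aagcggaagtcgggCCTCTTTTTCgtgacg
Rps27: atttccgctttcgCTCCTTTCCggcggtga
Rpl27a: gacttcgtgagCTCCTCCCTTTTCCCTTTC
Rpl22l1: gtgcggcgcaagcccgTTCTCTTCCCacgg
Rplp0: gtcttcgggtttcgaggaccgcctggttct
Rpsa: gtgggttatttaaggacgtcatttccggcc
Rpl10: gttgttacagtggaagataggccgcctata
Rpl41: cacacgggccggctcggaagtgacgacacc

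Of the 81 members, 61 matched the RefSeq table by symbol, and 52 of these had a single start window. A run of at least 7 pyrimidines lay in 25 of the 52 windows (48.1%), 16 of 32 in the large and 9 of 20 in the small subunit. It lay in 18.6% of all 32851 windows of the same 30 bases. On the opposite strand, where the same search finds runs of A or G, 2 of the 52 (3.85%) had one, against 20.3% of all windows. A C followed by at least 4 further pyrimidines, starting within 3 bases on either side of the annotated start, was in 18 of the 52 (34.6%) and in 9.96% of all windows. These counts depend on the annotated start, which can lie some bases from the start used in ChP, so a window without a run says nothing of the tract of that mRNA.

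The 81 genes together took 1.08 ± 0.088% of all counts in Ctrl and 1.09 ± 0.103% in SCNx (SD, n = 12 each), which is 381330 to 593958 counts per library. In Ctrl the share ran from 0.952% at CT8 over a median of 1.10% to 1.20% at CT44, and in SCNx from 0.949% at CT32 over 1.06% to 1.27% at CT16. The ranges of the groups overlapped almost entirely. The ratio of large to small subunit counts stayed between 1.63 and 1.73 in all 24 libraries. By mean CPM in Ctrl the highest members were Rpl3 (335 ± 21.7), Rpl4 (312 ± 17.5) and Rpl7 (293 ± 16.0), and the lowest were Rps27l (34.1 ± 3.04), Rpl22l1 (37.1 ± 4.08) and Rps28 (47.3 ± 4.29). Short mRNAs collect fewer reads, so levels are compared between genes per kb of transcript, with lengths of GENCODE M21 for all 81. On that scale Rpl41, the shortest ribosomal protein, was highest with 506 CPM per kb and Rpl7l1, a relative of Rpl7 that acts in ribosome assembly, lowest with 18.9, around a median of 166. Rps20 and Rps15a came next lowest with 24.0 and 28.9, through listed lengths of 3706 and 5130 nt against a median of 761. Values per kb depend on the annotated transcript, and which transcript is used in ChP was not checked.

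The first question was whether the level of the members differed between the groups with the 12 times of each pooled. No member passed the test, and the groups overlapped widely for each of them. Each group of 12 is given below by its lowest, median and highest library, in CPM scaled by TMM.

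The P stalk, the lever of the large subunit that recruits elongation factors, has 3 proteins, and each had a slightly lower mean in SCNx. Rplp0, its base, ran from 176 over 198 to 239 CPM in Ctrl and from 144 over 189 to 228 in SCNx, with a log2 fold change of -0.06 ± 0.064 (SE, edgeR adjusted p = 0.789). Rplp1 ran from 116 over 133 to 160 CPM in Ctrl and from 99.2 over 123 to 159 in SCNx, with a log2 fold change of -0.09 ± 0.071 (edgeR adjusted p = 0.692). Rplp2 ran from 50.7 over 57.3 to 66.6 CPM in Ctrl and from 45.4 over 53.7 to 63.95 in SCNx, with a log2 fold change of -0.08 ± 0.058 (edgeR adjusted p = 0.683). For all 3 the ranges of the groups shared most of their span, and the 95% intervals included 0. Also among the lower members with the smallest p was Rpl41, with the lowest value of all, -0.11 (95% interval -0.28 to 0.06).

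On the other side stood Rpl22l1, the paralog of Rpl22 that can take its place in the large subunit. It ran from 29.4 over 36.9 to 43.4 CPM in Ctrl and from 34.05 over 39.8 to 46.4 in SCNx, and had the smallest unadjusted p and the highest log2 fold change of the members, 0.10 ± 0.058 (edgeR adjusted p = 0.618). Rpl22 itself ran from 91.8 over 101 to 109 CPM in Ctrl and from 78.0 over 101 to 117 in SCNx. Rps3a1 (0.07 ± 0.052), Rpl5, which carries 5S rRNA to the large subunit (0.07 ± 0.050), Rpl10, which joins the large subunit last (0.06 ± 0.058), and Rps27 (0.06 ± 0.059) were the other 4 higher members with the smallest p. Rps27l, the paralog of Rps27, ran from 30.1 over 33.8 to 39.8 CPM in Ctrl and from 24.9 over 34.3 to 56.4 in SCNx, with a log2 fold change of 0.08 ± 0.088 (edgeR adjusted p = 0.792). Its SCNx range held the whole Ctrl range.

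**Figure D1:**
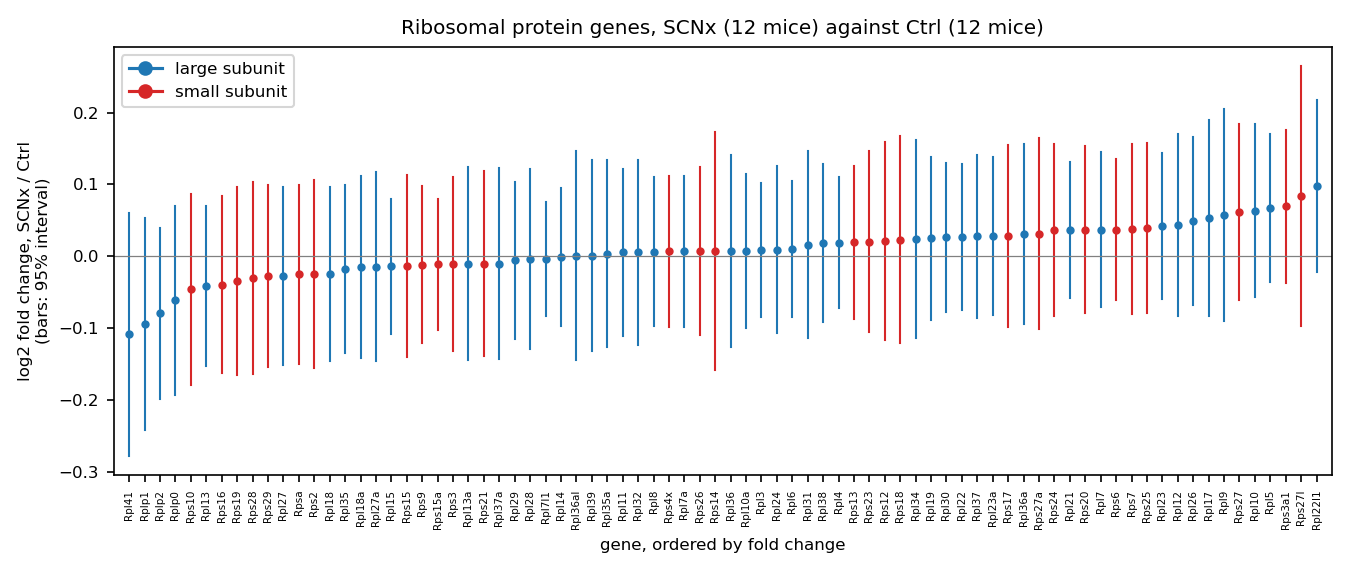
Log2 fold change of SCNx against Ctrl for 78 of the 81 ribosomal protein genes (vertical axis) in the order of their values (horizontal axis), with 95% intervals as bars, blue for the large and red for the small subunit. All points lie between -0.11 (Rpl41) and 0.10 (Rpl22l1), and each bar includes 0.

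Over the 81 members 0 were called at an adjusted p of 0.05 by edgeR's quasi-likelihood test, and 0 had an unadjusted p under 0.05. This is the background too, since 0% of the 13697 tested genes were called, with 1283 (9.37%) at an unadjusted p under 0.05. DESeq2 and limma-trend called 0 members as well, and their share over all tested genes was not counted. The paper, with DESeq2, reported a small number of genes that differed between the pooled groups. The median log2 fold change of the members was 0.0071 and that of all tested genes 0.011, with 51 members above and 30 below 0. The members' fold changes had a median size of 0.025 on the log2 scale, against 0.056 for all tested genes and 0.045 for the 8854 other genes with a mean of at least 10 CPM in both groups, a minimum that all members pass. These 8854 leave out the respiratory chain and the mitochondrial ribosome. Between the mice of a group the median SD over mean was 8.82% for the members and 7.82% for the 8854 genes in Ctrl, and 11.5% and 8.85% in SCNx. In 79 of 81 members the 95% interval lay within 0.25 log2 units on either side of 0. Without Ctrl CT4 and SCNx CT32, the libraries high in neuronal markers, the median became 0.043, and without Ctrl CT16 and SCNx CT0, those with hepatocyte genes, it became -0.020, with 0 members called in either case. Rps6, whose protein is phosphorylated downstream of mTOR, ran from 212 over 236 to 260 CPM in Ctrl and from 207 over 236 to 283 in SCNx. In bulk tissue fewer cells of a type and less RNA per cell cannot be told apart.

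The members did move, but together and from mouse to mouse. The values of each gene were set against the median of its own group on a log2 CPM scale. In SCNx CT0 and SCNx CT16 all 81 members were above their group median, by a median of 0.29 and 0.25, and in SCNx CT32 all 81 were below it, with a median of -0.28. In SCNx CT8 79 members were above (median 0.15), in SCNx CT44 80 (0.12), and in SCNx CT24 79 were below (-0.08). Ctrl showed the same one-sidedness. In Ctrl CT0 80 members were below their group median (-0.17), in Ctrl CT8 79 (-0.12) and in Ctrl CT12 77 (-0.09), while 80 were above it in Ctrl CT4 (0.14), 78 in Ctrl CT20 (0.11) and 80 in Ctrl CT44 (0.21). In 13 of the 24 libraries more than 75 of the 81 members lay on one side.

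**Figure D2:**
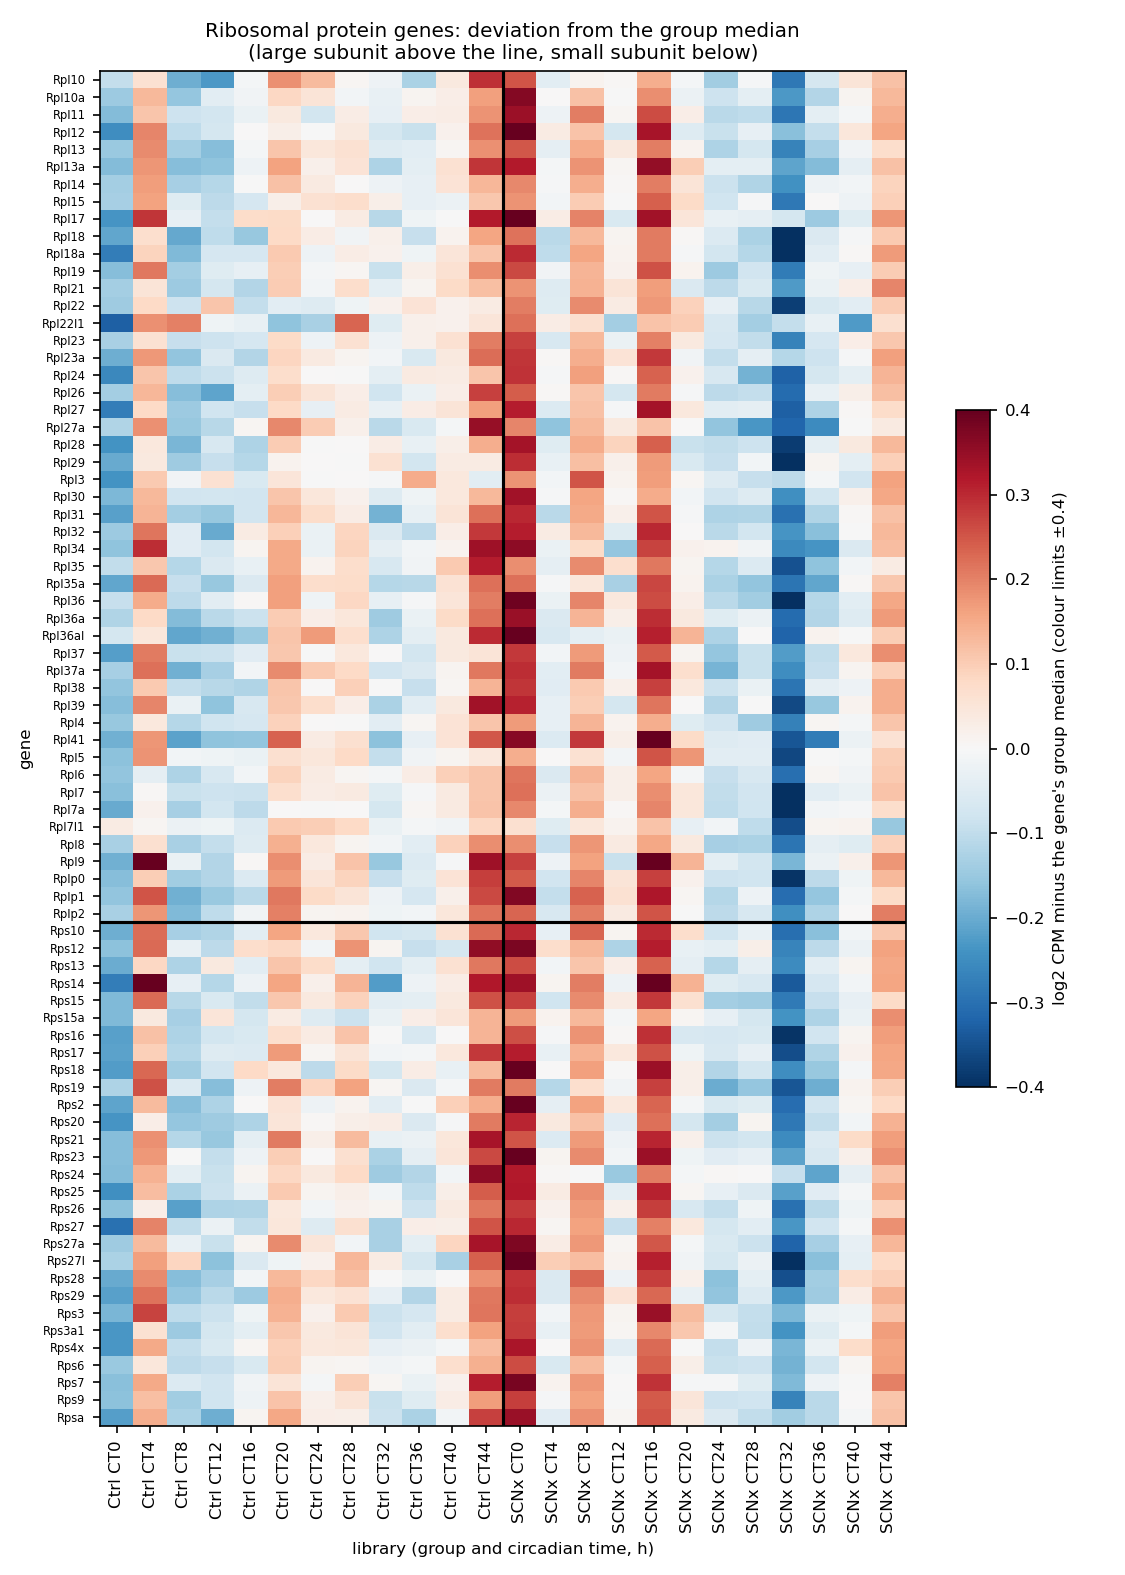
Deviation of each of 78 of the 81 ribosomal protein genes (rows, large subunit above the line and small subunit below) from its group median in 24 libraries (columns, Ctrl left of the line and SCNx right), in log2 CPM, red above and blue below, with colours limited to 0.4 on either side. Whole columns share a colour: SCNx CT0 and SCNx CT16 are red in 78 of 78 rows drawn, SCNx CT32 is blue in 78 of 78, and Ctrl CT0 is blue in 77.

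Both subunits moved alike. In SCNx CT0 the median deviation was 0.27 for the large and 0.30 for the small subunit, and in SCNx CT32 it was -0.29 and -0.25. For the typical member most of the spread between mice was this shared part. The SD of a member's deviations over the 24 libraries had a median of 0.14 log2 units, and once the median deviation of the other 80 members was taken off each library it was 0.049. The step made the SD smaller in 80 of 81 members.

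A few members kept a course of their own. Each member was on the same side as the median of the rest in 16 to 24 of the 24 libraries, with a median of 22, and in all 24 for 16 members, Rplp0 and Rplp1 among them. The remaining SD was highest for Rpl22l1 (0.14), followed by Rps27l (0.12) and Rpl7l1 (0.11), all 3 of them paralogs of a ribosomal protein, and Rpl3 (0.10). It was lowest for Rps9 (0.021), a member named here after its values were seen. In Ctrl CT20 Rpl22l1 had 33.1 CPM, under its group median of 36.9, in a library where 78 members were above theirs, and in Ctrl CT8 it had 42.5 while 79 members were below. In SCNx CT32, the low library of the others, it had 37.3 CPM against a group median of 39.8. Rpl7l1 was the steadiest member by its SD over mean, 3.87% in Ctrl and 8.05% in SCNx, where the members' medians were 8.82% and 11.5%. Rps27l was the most variable in SCNx with 21.2%, through 56.4 CPM in SCNx CT0. Rpl36al, the paralog of Rpl36a, ran from 42.5 over 49.1 to 60.4 CPM in Ctrl and from 38.1 over 47.7 to 64.4 in SCNx, and its parent Rpl36a from 51.6 over 58.2 to 67.8 and from 46.5 over 57.5 to 73.0. Both had their lowest Ctrl value at CT8 and their highest at CT44.

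Other gene lists had the sign of the members in most libraries. Nuclear genes of the respiratory chain (78 genes) had a median deviation of the same sign as the members in 22 of 24 libraries, and genes of the mitochondrial ribosome (79 genes) in 23. So did the 446 other genes with a transcript under 1000 nt and a mean of at least 10 CPM, in 22 of 24, while the 4713 with one over 3000 nt had the opposite sign in 19 of 24. Of the members, 61 had a transcript under 1000 nt, and of the respiratory chain genes 56, whereas the mitochondrial ribosome list had a median length of 1223 nt. In SCNx CT32 the respiratory chain had a median deviation of -0.45, the mitochondrial ribosome -0.25 and the short transcripts -0.29. In SCNx CT0 these were 0.19, 0.16 and 0.15. In some libraries the lists parted. The members had 0.14 in Ctrl CT4 and the other lists 0.0089, 0.032 and 0.016, and in SCNx CT44 the members had 0.12 and the others 0.032, 0.024 and 0.024. In Ctrl CT16 the members were nearer to 0, with -0.04 against -0.13, -0.13 and -0.08. The median of all tested genes was within 0.01 of 0 in all 24 libraries. The part of transcript length, RNA quality or mitochondrial content in the members' shared movement was not tested.

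**Figure D3:**
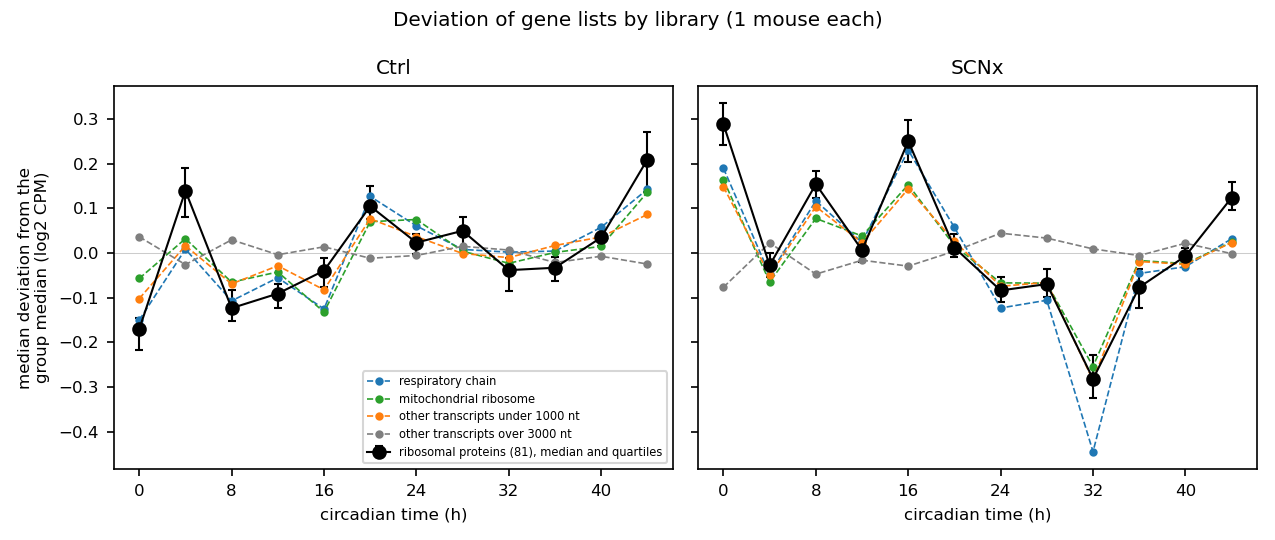
Median deviation from the group median (log2 CPM, vertical axis) by circadian time (h, horizontal axis) for the 81 ribosomal protein genes (black, with quartiles), respiratory chain genes (blue), mitochondrial ribosomal protein genes (green) and other genes with transcripts under 1000 nt (orange) or over 3000 nt (grey), in Ctrl (left) and SCNx (right). Black ranges from -0.17 to 0.21 in Ctrl and from -0.28 to 0.29 in SCNx, and the blue, green and orange lines are far below it in Ctrl CT4 and SCNx CT44.

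The libraries with the strongest shared deviations were partly those with markers of other tissues. SCNx CT0 (0.29) had the highest sum of hepatocyte genes, and Ctrl CT16, which had the next highest, had -0.04. SCNx CT32 (-0.28) and Ctrl CT4 (0.14) had the highest sums of neuronal markers, and the members deviated in opposite directions there. SCNx CT32 also had the lowest sum of epithelial markers in both groups, 114265 CPM. SCNx CT44, the library highest in blood genes, had 0.12. SCNx CT16 (0.25) and Ctrl CT44 (0.21) were in the range of the others for hepatocyte genes, with 4.20 and 3.84 CPM, and had neuronal sums of 58.5 and 152 CPM. The part of these tissues in the members' deviations was not tested.

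The second question was whether the members followed a 24 h rhythm. In Ctrl the shared deviation had the same sign on both days at 4 of 6 hours. It was 0.14 at CT4 and 0.05 at CT28, -0.12 at CT8 and -0.04 at CT32, -0.09 at CT12 and -0.03 at CT36, and 0.11 at CT20 and 0.21 at CT44. The sign changed from -0.17 at CT0 to 0.02 at CT24 and from -0.04 at CT16 to 0.03 at CT40. In SCNx it had the same sign at 2 of 6 hours, with -0.03 at CT4 and -0.07 at CT28 and with 0.01 at CT20 and 0.12 at CT44. It was 0.29 at CT0 and -0.08 at CT24, 0.15 at CT8 and -0.28 at CT32, 0.0067 at CT12 and -0.08 at CT36, and 0.25 at CT16 and -0.0067 at CT40.

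A 24 h cosine was fitted per group, whose amplitude is the height of the curve above its mean. In Ctrl 0 of 81 members were called rhythmic, whereas the same test called 1459 of 13697 genes, a background of 10.7%. This background includes 12 of the 15 hepatocyte genes, whose sum was highest in Ctrl CT16 with 2972 CPM. How much of it rests on single libraries was not tested. Without adjustment 2 members had p under 0.05, against 3398 (24.8%) of all tested genes. The median amplitude was 0.07 on the log2 scale for the members, 0.11 for all tested genes and 0.09 for the 8854 other genes with at least 10 CPM. These values rest on single mice. Without Ctrl CT0 16 members had an unadjusted p under 0.05 and the median amplitude of the members was 0.12, and without Ctrl CT44 0 members had and it was 0.05. With Ctrl fitted alone 7 members had an unadjusted p under 0.05. The share of all tested genes under these settings was not counted. Rpl10 came nearest. Its values were 264, 294, 246, 240, 280 and 320 CPM from Ctrl CT0 to CT20 and 308, 283, 278, 258, 289 and 345 CPM from CT24 to CT44. On both days it was lowest at the fourth sampling, CT12 and CT36, and highest at the last, CT20 and CT44. The fitted amplitude was 0.16 ± 0.045 with a peak at 21.6 h (edgeR adjusted p = 0.0843). The call of Rpl10 depends on the fit, and the share of all tested genes called under the other fits was not counted. It passed with DESeq2 (adjusted p = 0.0340), with a linear trend added (adjusted p = 0.0423), without Ctrl CT4 and SCNx CT32 (adjusted p = 0.0424), without Ctrl CT0 (adjusted p = 0.0192) and without SCNx CT32 (adjusted p = 0.0438), and its adjusted p was 0.267 without Ctrl CT44.

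Among the members with the next smallest p in Ctrl were, in this order, Rpl36al (amplitude 0.16 ± 0.047, peak at 22.1 h), Rpl27a (0.14 ± 0.052, 21.5 h), Rpl26 (0.11 ± 0.049, 21.7 h), Rpl22l1 (0.12 ± 0.061, 7.97 h), Rps24 (0.11 ± 0.057, 21.7 h), Rpsa (0.12 ± 0.056, 21.6 h), Rpl37a (0.12 ± 0.050, 22.4 h) and Rpl13a (0.12 ± 0.056, 21.3 h). Their edgeR adjusted p lay between 0.188 and 0.405. Rpsa, the laminin receptor that is also a protein of the small subunit, ran from 136 over 158 to 191 CPM in Ctrl and from 136 over 150 to 191 in SCNx, with its highest Ctrl value at CT44. Of these, Rpl22l1 alone had a fitted peak in the subjective day. Its 2 highest Ctrl values were 43.4 CPM at CT28 and 42.5 at CT8, and its lowest was 29.4 at CT0.

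In Ctrl the fitted peak of 64 of 81 members fell between 20 and 24 h and that of 10 between 16 and 20 h, where 19.7% and 16.8% of all tested genes had theirs. Since none of these curves passed the test and the members share their deviations library by library, the 64 peaks are not 64 separate observations. The 7 other peaks lay between 0 and 12 h and belonged, from the named members, to Rpl5 (1.39 h), Rps27l (2.36 h), Rpl22l1 (7.97 h), Rpl22 (10.9 h) and Rpl3 (11.1 h).

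**Figure D4:**
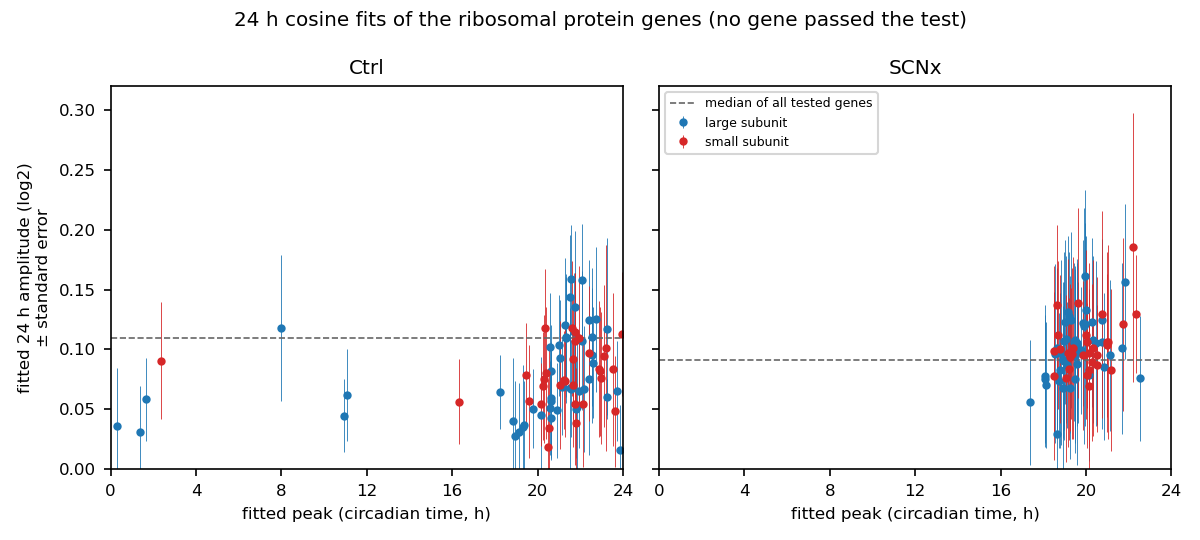
Amplitude of the fitted 24 h curve (log2, vertical axis, with its standard error) against the fitted peak (circadian time in h, horizontal axis) for the 81 ribosomal protein genes in Ctrl (left) and SCNx (right), blue for the large and red for the small subunit, with the median amplitude of all tested genes as a dashed line. In Ctrl 64 points lie between 20 and 24 h, in SCNx all 81 lie between 16 and 24 h, and none passed the test.

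In SCNx 0 of 81 members were called rhythmic, and so were 0% of the 13697 tested genes by edgeR, with 2 members and 2032 genes (14.8%) at an unadjusted p under 0.05. The median amplitude of the members was 0.10, that of all tested genes 0.09 and that of the 8854 others 0.07. All 81 fitted peaks fell between 16 and 24 h, 51 of them before 20 h. The 5 members with the smallest p were Rpl5 (0.13 ± 0.054, peak at 19.2 h, edgeR adjusted p = 0.301), Rpl36al (0.16 ± 0.072, 20.0 h), Rpl34 (0.16 ± 0.064, 21.8 h), Rps24 (0.13 ± 0.049, 22.4 h) and Rps19 (0.14 ± 0.066, 18.6 h). Rpl5 ran from 199 over 256 to 305 CPM, lowest in SCNx CT32 and highest in SCNx CT16. The SCNx values also depend on single mice. With a linear trend over the 2 days in the model, 55 members had an unadjusted p under 0.05, and without SCNx CT8 34 had, with 0 members called after adjustment in both. The median amplitude of the members was 0.14 in the first case and 0.15 in the second. How many of all tested genes had such a p in these cases was not counted.

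The difference of the rhythm between Ctrl and SCNx was called for 0 of 81 members and for 291 of 13697 genes, 2.12%. The 291 include 10 of the 15 hepatocyte genes. None of the members had an unadjusted p under 0.05, against 2067 (15.1%) of all tested genes. With a linear trend in the model 11 members had, and with single libraries left out 0 or 1, and all tested genes were not counted there. The smallest p belonged to Rpl22l1 (amplitude 0.12 in Ctrl and 0.08 in SCNx, peaks at 7.97 and 22.5 h, edgeR adjusted p = 0.389), Rpl5 (0.03 and 0.13, adjusted p = 0.468) and Rps19 (0.11 and 0.14, adjusted p = 0.488). A rhythm that missed the threshold in both groups is not shown to be equal in them.

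Genes that work with the ribosome were taken from fixed lists of the translation machinery. For the level, 0 genes were called in every list. For the rhythm in Ctrl, 1 of 9 elongation factors, 4 of 37 initiation factors, 1 of 10 other genes with a TOP tract, 10 of 86 ribosome biogenesis genes and 1 of 23 genes of TOP control and the mTOR pathway were called, beside 10.7% of all tested genes. None of these lists had a gene called for a rhythm in SCNx or for a difference of the rhythm. Median amplitudes in Ctrl were between 0.06 and 0.10 log2 units in these lists. Among these genes the Ctrl rhythm with the smallest p was that of Ncl, nucleolin, a nucleolar protein of rRNA processing, which ran from 234 over 282 to 342 CPM in Ctrl and from 249 over 295 to 317 in SCNx. Its amplitude was 0.23 ± 0.025 in Ctrl, with a peak at 9.02 h (edgeR adjusted p = 0.000811), and 0.06 ± 0.042 in SCNx (edgeR adjusted p = 0.580). The difference of its rhythm had an edgeR adjusted p of 0.0782. Eif4a2, an initiation factor helicase, had a fitted peak at 20.6 h (amplitude 0.15 ± 0.028, edgeR adjusted p = 0.00343). Deptor, an inhibitor of mTOR, had an amplitude of 0.20 ± 0.041 with a peak at 4.25 h (edgeR adjusted p = 0.00500). The subunits of the respiratory chain had 1 of 78 called, Ndufb2 (0.22 ± 0.034, peak at 21.4 h, edgeR adjusted p = 0.00200), and the mitochondrial ribosome had 4 of 79, Mrps17 first among them (0.19 ± 0.037, 21.9 h, edgeR adjusted p = 0.00288). The smallest unadjusted p for the level was that of Bop1, a protein of large subunit assembly, with 21.1 ± 1.16 CPM in Ctrl and 19.4 ± 1.13 in SCNx and a log2 fold change of -0.12 ± 0.036 (edgeR adjusted p = 0.375), followed by Utp14a (0.10 ± 0.037) and Rps6kb1, the S6 kinase (0.10 ± 0.036).

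The members took 1.01% (95% Wilson interval 1.01 to 1.02%) of the counts of the KO library at ZT7 and 0.825% (0.821 to 0.829%) of that at ZT18. These intervals cover counting error alone. Mitochondrial transcripts took 25.1% and 21.8% of the KO counts against 3.92 to 8.77% in Ctrl, and without these and Rn18s the share of the members was 1.36% and 1.07% in KO against 1.05 to 1.39% in Ctrl. The ratio of large to small subunit counts was 1.99 and 2.06 in KO, above all 24 other libraries. In KO neuronal markers summed to 524 and 620 CPM at ZT7 and ZT18, near Ctrl CT4 and below the 1835 of SCNx CT32. Astrocyte markers summed to 758 and 873 CPM in KO, against at most 698 in Ctrl and 884 in SCNx. Oligodendrocyte markers summed to 307 and 446 CPM, against at most 148 in Ctrl and 281 in SCNx. The part of brain tissue in the KO values was not tested. Each KO value rests on 1 mouse, so no test was made.

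Single members differed unevenly between KO and Ctrl. In CPM of all counts, 47 of 81 members had both KO values below the lowest Ctrl library, 9 had both above the highest, 6 had both within the Ctrl range and 19 were mixed. Of all tested genes 40.4% had both KO values below the Ctrl range and 16.9% both above it, next to 58.0% and 11.1% of the members. With mitochondrial transcripts and Rn18s left out of the totals, 30 members (37.0%) had both below and 14 (17.3%) both above, against 28.9% and 26.1% of all tested genes. Rpl26, a large subunit protein that also binds the mRNA of p53, had 495 CPM (95% Wilson interval 484 to 505) at ZT7 and 291 (284 to 299) at ZT18 against 126 to 174 in Ctrl. Rplp2 had 101 and 127 CPM against 48.3 to 67.5, and Rps23, a protein of the decoding centre, had 321 and 214 against 128 to 169. These 3 were the highest relative to Ctrl. Lowest relative to Ctrl was Rps13 with 24.3 and 27.2 CPM against 68.2 to 87.3, followed by Rpl9 with 75.2 and 63.7 against 163 to 245. On the log2(CPM + 1) scale the mean of KO minus that of Ctrl ran from -1.57 (Rps13) to 1.40 (Rpl26), with a median of -0.43 for the members and -0.24 for all tested genes. Past a 2-fold difference in either direction were 15 of 81 members, 18.5%, next to 17.7% of all tested genes. The P stalk was spread over this range, with Rplp0 at -0.46, Rplp1 at 0.0038 and Rplp2 at 0.96. With mitochondrial transcripts and Rn18s left out of the totals the median of the members became -0.19, and 33 in place of 21 members had a KO mean above that of Ctrl, so the direction of members near the median depends on the scale.

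**Figure D5:**
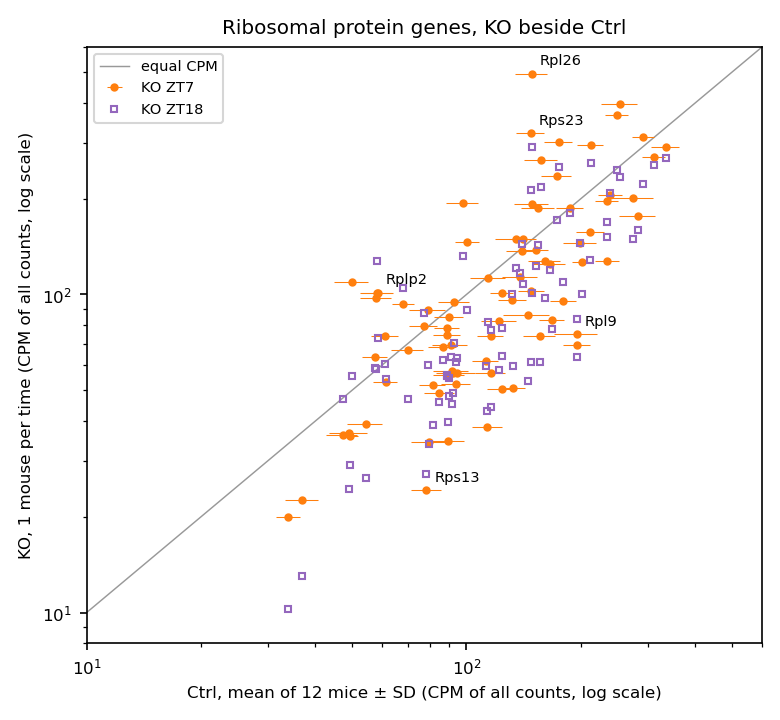
CPM of all counts in the KO libraries at ZT7 (filled) and ZT18 (open squares) on the vertical axis against the mean of 12 Ctrl mice with its SD on the horizontal axis, both logarithmic, for the 81 ribosomal protein genes, with equality as a line. Rpl26 lies farthest above the line at ZT7 and Rps13 far below it, and 47 members (58.0%, against 40.4% of all tested genes) have both KO values under the Ctrl range on this scale.

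Day and night in KO were 1 mouse each. At ZT7 61 of 81 members were higher than at ZT18 and 20 were lower, with a median difference of 0.26 on the log2(CPM + 1) scale, from -0.36 (Rps28) to 0.97 (Rpl34), whereas all tested genes had a median of -0.11 and 36.1% were higher at ZT7. CT8 and CT32, near ZT7 in constant darkness, were set against CT16, CT20, CT40 and CT44 on the same total-scaled CPM. At CT8 and CT32 80 of 81 members were lower in Ctrl (median -0.22) and 78 in SCNx (median -0.08). The share over all tested genes was not counted, and the members share their deviations, so these are not separate observations. On the TMM-scaled deviations Ctrl had -0.12 at CT8 and -0.04 at CT32, but 0.14 at CT4 and 0.05 at CT28. SCNx had 0.15 at CT8 and -0.28 at CT32. At CT16, CT20, CT40 and CT44 the deviations were -0.04, 0.11, 0.03 and 0.21 in Ctrl. In SCNx they were 0.25, 0.01, -0.0067 and 0.12 at these times. The medians of -0.22 and -0.08 hold for total-scaled CPM and were not computed on the TMM scale. A difference of these medians between the groups was not tested. The shared deviations between mice shown above, on the TMM scale, reached 0.21 log2 units in Ctrl and 0.29 in SCNx. With a single mouse per time, the difference between the KO mice cannot be told apart from a difference between 2 animals. The paralogs Rpl22l1 and Rps27l had 22.6 and 20.0 CPM at ZT7 and 13.01 and 10.2 at ZT18, and their parents Rpl22 and Rps27 had 147 and 82.5 at ZT7 and 89.2 and 57.9 at ZT18.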

How the data were processed

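Poly(A) RNA of ChP from 24 Ctrl and SCNx mice and laser-captured ChP from 2 KO mice was sequenced with single-end reads. The authors processed the reads with the nf-core/rnaseq pipeline (cutadapt 3.4, STAR and Salmon 1.9.0 per the submitters' processing notes) on GRCm39 and deposited estimated counts per gene, without normalization. KAPA mRNA HyperPrep was used for Ctrl and SCNx and a Smarter Stranded total RNA low-input kit for KO. The estimated counts were rounded to whole numbers. Reads that fit a member and one of its pseudogenes are shared out by Salmon, so counts of single members carry that uncertainty. Pseudogenes by name held counts equal to 0.735% of those of the members in Ctrl, 0.735% in SCNx and 1.73% in KO.

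Only genes that reached a mean of 1 CPM in each of Ctrl and SCNx entered the tests with edgeR 4.0.16 under R 4.3.3, after TMM scaling with factors from 0.955 to 1.08. All p-values of single genes are from its quasi-likelihood test, adjusted after Benjamini and Hochberg over 13697 genes, with a threshold of 0.05. Levels were compared with a mean per group, and rhythms by adding cosine and sine terms of period 24 h for either group in 1 fit. CPM of Ctrl and SCNx are TMM-scaled, and CPM set beside KO are counts scaled to the total of all genes. The standard error of an amplitude comes from least squares on log2 CPM with a prior count of 1. DESeq2 1.42.0 and limma-trend (limma 3.58.1) were alternatives, with other scalings and filters and libraries left out. The fits were tested on simulated data with effects far larger than those of the members. That test does not measure the power to find effects of the members' size. No 2 libraries held identical values. Each p measures the spread between single mice of different times.

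The members and the gene lists were chosen with earlier results of these data known. Members named are the P stalk, Rpsa and Rps6, paralogs and their parents, those with the smallest p in each test, and the highest and lowest by level and by KO against Ctrl; from the other lists, those with the smallest p. Transcript lengths are of the shortest principal transcript of the best support in GENCODE M21 (GRCm38), matched by Ensembl identifier, and were not used in a test. A few genes that this rule names are not reported here, and their rows are not drawn where figures label single genes.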

Additional observations from a re-analysis of the deposited data

How the results depend on the processing

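Over 36 alternatives for the level, 0 members were called in each, and the median log2 fold change of the members ran from -0.020 to 0.043, and was below 0 without a filter and without some libraries. Of the 35 members chosen by the rule, 18 had a difference of level that changed sign under at least 1 alternative. None of these was among the 10 with the smallest p in either direction. The count of members rhythmic in Ctrl was 0 under 31 of 36 alternatives and 1, Rpl10, with DESeq2, with a linear trend added and without Ctrl CT4 and SCNx CT32. With single libraries left out it ran from 0 to 1, and was 1 without Ctrl CT0 and without SCNx CT32. The adjusted p of Rpl10 ran from 0.0192 to 0.267. The cause was not tested. For the rhythm in SCNx and its difference between the groups, 0 members were called under all of 36 and 35 alternatives.

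The replicate numbers of Ctrl and SCNx mark a circadian time and not a shared animal, and the deviations of same-numbered libraries had correlations from -0.445 to 0.335. With circadian time as a replicate block, 0 members were called for the level and the median log2 fold change was 0.0027.

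With mitochondrial genes and Rn18s left out of the totals, the members' mean share was 1.21% in Ctrl and 1.22% in SCNx, their share in KO was 1.36% at ZT7 and 1.07% at ZT18, and the median of KO minus Ctrl was -0.19 on the log2(CPM + 1) scale. In Ctrl and SCNx depth limits these results little, since libraries held at least 38751177 counts. The lowest member there, Rps27l, had a mean of 34.1 CPM in Ctrl. The KO libraries held 17425182 and 18059244 counts, and Rps27l had 185 counts (10.2 CPM) at ZT18. Each time of a group rests on 1 mouse.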
